A study of Glycine max with 18 samples.

Results

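The comparison set the epidermis of the developing soybean seed coat, captured by laser, against the outer integument that lies beneath it. Its members were 4 of the 18 arrays of the study, 2 of epidermis and 2 of outer integument, chosen by their labels. Both groups came from the same cultivar, Asgrow A3237, with no treatment or mutation in either, from seeds 2.5 to 3.0 mm long whose embryos were at the cotyledon stage. Plants were raised at 22 °C under days of 16 h and nights of 8 h. Seeds were fixed, embedded in paraffin and cut into 8 µm sections, and 2 ng of RNA from each capture was amplified before labelling and hybridization to the Affymetrix Soybean Genome Array. The other 14 arrays, 7 groups of seed parts and whole seed, served only to estimate the spread between arrays of a group. How many plants or seeds went into a capture is not given in the sources used here, and captures of the 2 layers may share seeds. Spread between these arrays, which may be partly technical, is all that the p-values take into account.

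The seed coat is maternal tissue that forms from the integuments of the ovule. Its epidermis matures into the palisade layer that meets the outside of the seed, and in pigmented soybeans this layer stores anthocyanins and proanthocyanidins. The outer integument beneath it holds parenchyma and the vascular strands through which sugars and amino acids reach the seed. Flavonoids are made from phenylalanine. The phenylpropanoid enzymes PAL, C4H and 4CL supply the starter, chalcone synthase and chalcone isomerase build the skeleton, and F3H, DFR and ANS lead to anthocyanidins. ANR and LAR lead from these last steps towards proanthocyanidins.

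Of 31961 soybean probe sets tested with limma across all 18 arrays, 4488 differed between the layers at an adjusted p under 0.05, which is 14.0% of them. In epidermis 2185 were higher (6.84%) and 2303 were lower (7.21%). The median log2 fold over all tested probe sets was 0.0. Of the called probe sets, 4484 had no overlap between the 2 epidermis and the 2 outer integument arrays, a separation that 48.1% of all tested probe sets also had. More than 4-fold differences were called for 1083 probe sets higher in epidermis and 999 lower, and more than 16-fold differences for 183 higher and 141 lower. The same fit on 9631 probe sets made for other organisms, adjusted over these alone, called 0 (0.0%). Of them, 873 (9.06%) had an unadjusted limma p under 0.05. Since the adjustment was separate, the 0 is not a rate at the cutoff of the soybean probe sets. A single gene tested on these 4 arrays alone by an exact two-sided permutation could not reach a p below 0.333.

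Signals had been scaled by the authors to a common trimmed mean near 500. Signals reached 100 for 60.02% and 67.2% of the soybean probe sets on the epidermis arrays and 66.5% and 62.5% on the outer integument arrays. The 18S rRNA probe set read 33464.3 and 31317.3 on the epidermis arrays, against 63009.3 and 54324.9 on the outer integument arrays. Actin read 192.2 and 304.2 at its 5′ end against 68.2 and 144.7. At its 3′ end it read 16694.4 and 19892.4 against 23789.1 and 19042. The 18S and 5′ actin signals did not overlap between layers, and any effect of RNA quality on the folds was not tested. Background differed within each layer. The 95th percentile of the other-organism probe sets was 134.5 and 213.5 on epidermis arrays 1 and 2, against 197.5 and 152.5 on outer integument arrays 1 and 2. Across probe sets the log2 signals correlated at 0.94 between the epidermis arrays, at 0.944 between the outer integument arrays and at 0.857 to 0.871 between layers, as a description, since probe sets are not independent. Where both arrays of the lower layer lay under that background percentile, the fold is given below as a lower bound. Where only 1 of them did, the fold is given as fitted and would be smaller against that percentile.

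Names could be given to 1043 measured genes. Of these, 103 were higher in epidermis (9.88%) and 146 were lower (14.0%), and their median log2 fold was -0.1. The counts of each gene group below stand against these shares. In captured tissue, fewer cells of a kind and less RNA per cell cannot be told apart. Leaving out each of the 4 arrays in turn kept 151 of the 249 called genes at every step.

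**Figure D1:**
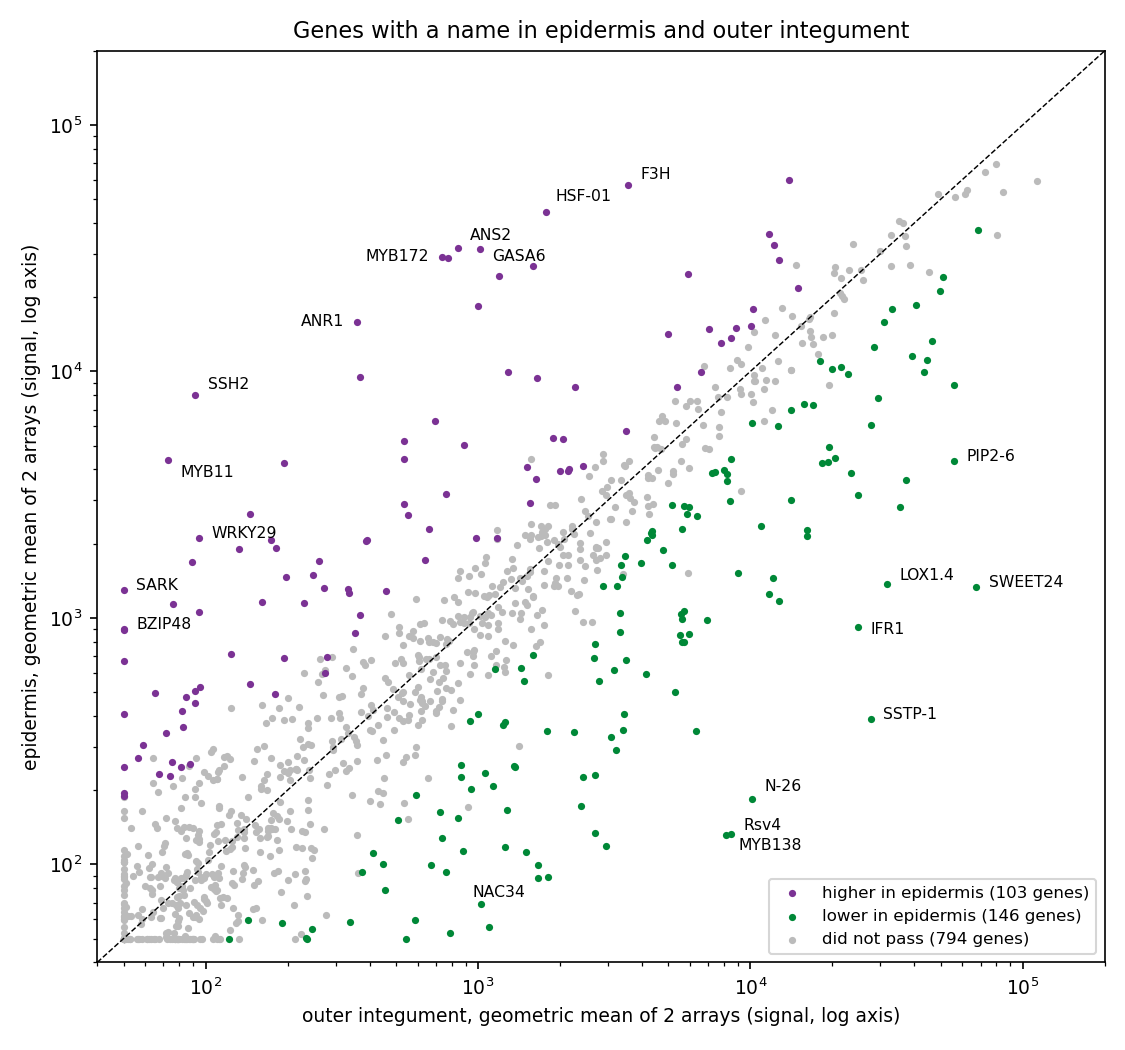
Each point is 1 of 1043 genes with a name, at its geometric mean signal over 2 epidermis arrays (vertical, log axis) and 2 outer integument arrays (horizontal, log axis, signals under 50 set to 50). The 103 genes higher in epidermis lie above the dashed line of equal signal and the 146 lower ones below it, with SSH2, MYB11 and ANR1 far above and SSTP-1, N-26 and SWEET24 far below.

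The labels could be checked in part. The list fixed for epidermis held 1 measured gene, HPS, a hydrophobic seed surface protein, with 75.8 and 186.5 in epidermis against 63.8 and 38.4 in outer integument (adjusted p = 0.196). No class IV HD-ZIP gene, the family that defines plant epidermis, had a name on the array, so the defining epidermal markers could not be read. The vascular list (8 measured genes) had 2 lower in epidermis, 1 higher (the sucrose carrier SUT1) and 5 neither. Those lower were SEOA and SEO-F3, structural proteins of sieve elements. The 6 measured storage protein genes, among the markers fixed for embryo, gave 0 calls in the limma fit, with 2 at an unadjusted p under 0.05. GY5, a glycinin, had the smallest adjusted p of these (0.109), with signals of 10.7 and 46.7 in epidermis and 154.9 and 73.5 in outer integument, close to background. GY2, GY3 and CG-BETA-1 had no signal above 162.2 either. With signals this low, the 0 calls cannot decide whether embryo RNA was present. YABBY11 and PHANa, also fixed as embryo markers, are not described here. The list fixed for endothelium was that of anthocyanin and proanthocyanidin genes, of which 4 of 6 were higher in epidermis, as described next. Whether RNA of neighbouring layers entered either capture was not tested.

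Genes at several steps of the flavonoid pathway, down to ANR1, were higher in epidermis, while others at the same steps did not pass. Of 12 measured early flavonoid genes, 5 rose, 0 fell and 7 did not pass, with a median log2 fold of 1.0. Of 6 measured anthocyanin and proanthocyanidin genes, 4 rose, 0 fell and 2 did not pass, with a median of 4.56, or 3.97 when genes near background stand at their bounds. Of the anthocyanin and proanthocyanidin list, the largest change was that of ANR1, anthocyanidin reductase, which makes the epicatechin unit of proanthocyanidins. ANR1 had signals of 14224.1 and 17797.0 on the epidermis arrays, against 356.0 and 362.9 on the outer integument arrays, which is 44.3-fold (log2 fold 5.47 ± 0.44 SE, adjusted p = 9.7e-08). ANS2, anthocyanidin synthase, stood at 27263.4 and 36875.8 in epidermis and at 1085.7 and 655.1 in outer integument, a 37.6-fold difference (log2 5.23 ± 0.38). For DFR1, dihydroflavonol reductase, the signals were 25012.2 and 33252.2 in epidermis and 569.9 and 1049.3 in outer integument, 37.3-fold apart (log2 5.22 ± 0.44). Its paralog DFR2 reached 837.2 and 1556.2 in epidermis, against 63.3 and 91.5 in outer integument, at least 6.58-fold. In each of these 4 genes both epidermis arrays exceeded both outer integument arrays. Layers were also without overlap for 4484 of 4488 called and 48.1% of all tested probe sets. The calls of these 4 genes held when any 1 array was left out. DFR1 and DFR2 rose together.

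Both remaining genes of that list had low signals. LAR1, leucoanthocyanidin reductase, the enzyme that makes catechin, had 310.2 and 87.5 in epidermis and 12.3 and 24.4 in outer integument, with an adjusted p of 0.0667. The anthocyanin glucosyltransferase UGT78K1 had 42.8 and 396.3 in epidermis, against 81.3 and 99.3 in outer integument (adjusted p = 0.699), and its layers overlapped.

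Upstream, F3H, flavanone 3-hydroxylase, stood at 45357.0 and 71198.3 in epidermis and 3455.0 and 3677.9 in outer integument, 15.9-fold (adjusted p = 4.77e-08). By its suffix that probe set may bind related transcripts. The other F3H probe set, without a suffix, had 12588.8 and 10978.4 in epidermis and 224.3 and 114.6 in outer integument (log2 fold 6.20, limma adjusted p = 3.35e-08). Among the chalcone isomerases, which close the flavanone ring, members differed. CHI2-A had 7526.5 and 11909.4 in epidermis against 534.7 and 254.4 in outer integument (25.7-fold), and CHI4A had 22135.6 and 26867.3 against 1066.9 and 1340.8 (20.4-fold). In contrast, CHI1A stood at 1446.1 and 981.2 in epidermis and 596.5 and 588.3 in outer integument (adjusted p = 0.0901). The signals of CHI3A1 were 49.8 and 152.3 in epidermis and 276.2 and 199.2 in outer integument (adjusted p = 0.0728), and those of CHI1B1 lay between 88.5 and 109.6 on all 4 arrays. Of the 5 chalcone isomerase genes, then, 2 passed and 3 did not.

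Chalcone synthase catalyses the first committed step. CHS8 rose 22.0-fold, with 3033.9 and 5949.8 in epidermis and 241.0 and 155.3 in outer integument (log2 4.46 ± 0.43). It has 4 other tested probe sets on the array, of which 2 were also higher. Another was called lower, at 7.1 and 8.7 in epidermis and 171.5 and 151.6 in outer integument, signals within the background range. CHS1 had 389.9 and 381.1 in epidermis and 182.5 and 205.6 in outer integument (adjusted p = 0.282). Chalcone synthase copies are closely alike in sequence, so the split of signal between them is uncertain. FLS1, flavonol synthase, had 628.8 and 437.3 in epidermis against 182.1 and 6.6 in outer integument (adjusted p = 0.0126). Its fitted fold was 5.50, or 2.88 without outer integument array 2, where the call was lost (adjusted p = 0.192). Without epidermis array 1 the call was also lost (0.0922), and without outer integument array 1 the fold was 10.49.

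At the entry to the pathway, 3 of 9 measured phenylpropanoid genes rose, 2 fell and 4 did not pass. C4H, cinnamate 4-hydroxylase, had 6050.5 and 6525.8 in epidermis and 782.0 and 616.2 in outer integument (9.05-fold, log2 3.18 ± 0.24). The 4-coumarate ligases 4CL3 and 4CL4 rose at least 15.2-fold and at least 9.70-fold. 4CL3 had 1904.5 and 3641.2 in epidermis against 181.5 and 117.1 in outer integument, and 4CL4 had 1405.1 and 2015.4 against 158.3 and 44.9. The 3 other ligase genes measured did not pass. For 4CL4 the fitted fold of 18.9 became 33.7 without outer integument array 1 and 10.6 without outer integument array 2. PAL2.1, phenylalanine ammonia-lyase, had 15358.0 and 7185.3 in epidermis and 6336.0 and 7173.7 in outer integument (adjusted p = 0.158).

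**Figure D2:**
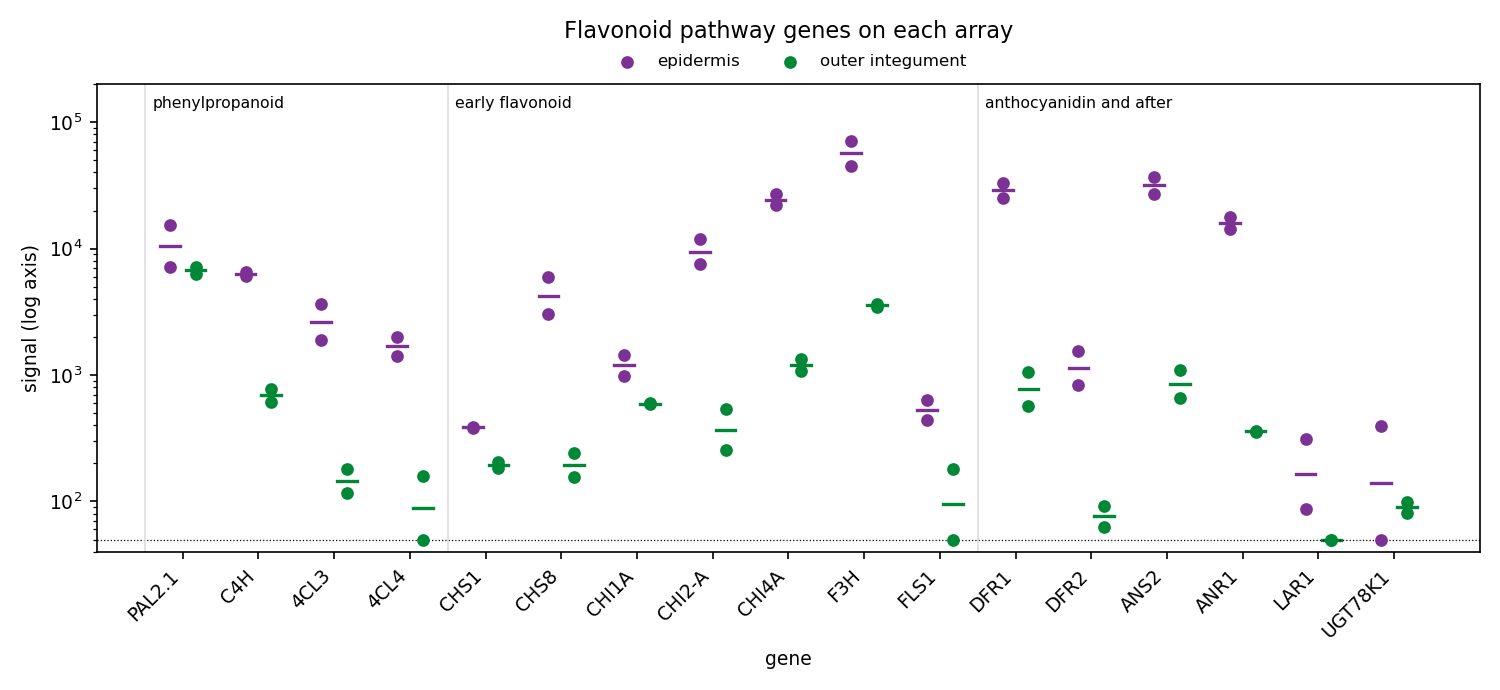
Signal of each array (dots, log axis, floored at 50 at the dotted line) and the geometric mean of each layer (bars) for 17 genes in pathway order, epidermis left and outer integument right of each position. C4H, 4CL3, 4CL4, CHS8, CHI2-A, CHI4A, F3H, DFR1, DFR2, ANS2 and ANR1 have both epidermis arrays far above both outer integument arrays. The layers of UGT78K1 overlap and those of PAL2.1 nearly meet. LAR1 has low signals, with both epidermis dots above outer integument dots at the floor.

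The 2 genes of the phenylpropanoid and lignin list that fell were CYP98A2 and CCR. CYP98A2, a coumaroyl ester 3′-hydroxylase of the lignin branch, had 125.0 and 411.5 in epidermis and 2094.4 and 2838.8 in outer integument, 10.7-fold lower in epidermis (adjusted p = 0.00104). CCR, cinnamoyl-CoA reductase, had 243.9 and 52.8 in epidermis against 847.7 and 913.6 in outer integument, 7.76-fold lower. Its other probe set, at 244.9 and 190.8 in epidermis and 165.6 and 94.5 in outer integument, did not pass (adjusted p = 0.196). Both folds depended on 1 epidermis array. Without epidermis array 2 they were 19.5 for CYP98A2 and 3.61 for CCR, and without epidermis array 1 they were 5.93 for CYP98A2 and 16.7 for CCR, with the calls kept.

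Of 11 measured genes of the isoflavonoid branch, 1 rose, 1 fell and 9 did not pass. HIDH, 2-hydroxyisoflavanone dehydratase, had 7537.4 and 11808.0 in epidermis and 1775.4 and 1523.3 in outer integument (5.74-fold higher). IFR1, of the isoflavone reductase family, had 1045.6 and 801.2 in epidermis against 27992.1 and 22222.0 in outer integument, 27.3-fold lower (log2 -4.77 ± 0.57, adjusted p = 8.52e-06). Of its 3 other probe sets, 1 was also called lower and the rest did not pass. The related IFR2 had 14660.8 and 11684.2 in epidermis and 14260.8 and 16836.2 in outer integument, and its layers overlapped. The isoflavone synthases IFS1 and IFS2, the entry enzymes of this branch, had no signal above 140.2 on any of the 4 arrays.

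The outer integument had by far the higher signal of a sugar transporter. SWEET24 belongs to a family that lets sucrose or hexoses pass membranes in either direction. It had 1185.1 and 1499.7 in epidermis, against 79060.6 and 57743.3 in outer integument, 50.7-fold lower in epidermis (log2 -5.66 ± 0.43, adjusted p = 4.47e-08). Of 15 measured genes of sugar transport and cleavage, it was the only one called lower, 2 were higher and 12 did not pass. Both that rose are proton-coupled importers. STP1, a hexose carrier, had 4281.1 and 2358.7 in epidermis and 635.9 and 914.9 in outer integument (4.17-fold). That probe set may bind related transcripts by its suffix. The other STP1 probe set, without a suffix, had 6948.9 and 8591.0 in epidermis and 104.3 and 108.3 in outer integument (log2 fold 6.18, adjusted p = 2.16e-08). SUT1, a sucrose carrier, had 715.6 and 665.5 in epidermis against 172.8 and 217.8 in outer integument (3.56-fold, adjusted p = 0.0164). The SUT1 call was lost without epidermis array 1, epidermis array 2 or outer integument array 1 (adjusted p 0.0817, 0.0629 and 0.111), and neither of its 2 other probe sets passed. SS, sucrose synthase, stood at 28639.6 and 24926.6 in epidermis and 32067.0 and 33550.0 in outer integument (adjusted p = 0.323). The other 7 SWEET genes measured did not pass. The nearest to passing was SWEET31, at 239.7 and 301.8 in epidermis and 34.9 and 81.6 in outer integument (adjusted p = 0.0531).

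Most water channel genes did not pass, and those that did lay on either side. Of 22 measured aquaporins, 6 fell, 2 rose and 14 did not pass, and the median log2 fold was -0.52, or -0.18 with bounds. N-26, nodulin-26, first known from the membrane around root nodule bacteria, had 162.6 and 208.0 in epidermis, against 10077.2 and 10271.6 in outer integument, 55.3-fold lower (log2 -5.79 ± 0.60). The 2 layers thus differed widely in N-26 while their arrays agreed closely. The plasma membrane channels PIP2-6 and PIP2-9 fell 12.97-fold and 7.49-fold. PIP2-6 had 3100.9 and 6047.2 in epidermis and 64510.5 and 48867.7 in outer integument, and PIP2-9 had 2037.8 and 2261.2 against 15874.2 and 16287.2. The other 3 that fell, PIP2-2, PIP2-1 and PIP1-7, did so by 3.43-fold, 2.18-fold and 1.82-fold. Another probe set of PIP2-1 was called higher, and left-out arrays ended the last 2 calls. Without outer integument array 1 the adjusted p was 0.064 for PIP2-1 and 0.238 for PIP1-7, and PIP1-7 was also lost without epidermis array 1 (0.0537) or 2 (0.0737).

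Opposite to N-26 within the same subfamily, NIP1-8 had 2384.8 and 1552.4 in epidermis and 263.4 and 125.2 in outer integument (10.6-fold higher, adjusted p = 2.78e-05). PIP2-4 had 47821.5 and 75116.0 in epidermis against 16669.1 and 11596.0 in outer integument (4.31-fold, adjusted p = 0.0225). The PIP2-4 call was lost without epidermis array 2 (adjusted p = 0.164), outer integument array 1 (0.0646) or outer integument array 2 (0.148). Differences between members of a family were not themselves tested.

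The sieve element genes SEOA and SEO-F3 had low signals in epidermis. SEOA had 72.9 and 65.9 there, against 1232.3 and 858.5 in outer integument, at least 6.07-fold lower. For SEO-F3 the values were 173.4 and 24.6 in epidermis and 483.9 and 1210.6 in outer integument (8.22-fold lower, adjusted p = 0.0163). The SEO-F3 call was lost without epidermis array 2 (fold 4.41, adjusted p = 0.195) or outer integument array 2 (fold 5.20, 0.157), and the fold was 15.3 without epidermis array 1. The remaining 5 members of the family did not pass.

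Lipoxygenases oxidise polyunsaturated fatty acids, and allene oxide synthase (AOS) and cyclase (AOC) carry part of the product to jasmonate. Of 16 measured genes of this list, 8 fell in epidermis, 0 rose and 8 did not pass, with a median log2 fold of -1.58. LOX1.4 had 1742.7 and 1081.5 in epidermis, against 33218.3 and 30570.2 in outer integument, 23.2-fold lower (log2 -4.54 ± 0.32, adjusted p = 2.4e-08), and all 4 of its other probe sets were called lower too. The vegetative lipoxygenase VLXC had 61.9 and 126.7 in epidermis and 1752.8 and 1860.9 in outer integument, at least 10.7-fold lower. VLXB had 4476.1 and 4471.4 against 18687.8 and 22507.1 (4.58-fold), and LOX7 had 10433.6 and 7444.9 against 54423.5 and 57950.4 (6.37-fold). The cyclases AOC3 and AOC4 fell 3.95-fold and 4.70-fold.

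AOS1 had 150.6 and 355.4 in epidermis and 3738.2 and 1931.5 in outer integument, 11.6-fold lower, or 7.56-fold without epidermis array 1 and 17.8-fold without epidermis array 2. LOXB1 had 194.7 and 284.4 in epidermis against 626.6 and 1787.9 in outer integument (4.50-fold lower, adjusted p = 0.00792). Its call was lost without epidermis array 1 (adjusted p = 0.0753) and without outer integument array 2 (fold 2.66, 0.149), and the fold was 7.60 without outer integument array 1. Members that did not pass included AOS2, at 330.1 and 478.9 in epidermis and 495.2 and 431.9 in outer integument, and the jasmonate repressor GmJAZ1, at 2038.6 and 3397.4 in epidermis and 5228.0 and 3426.3 in outer integument. By their suffix, the probe sets of LOX1.4, LOX7 and LOXB1 may also bind related transcripts, so paralogs may share their signal.

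**Figure D3:**
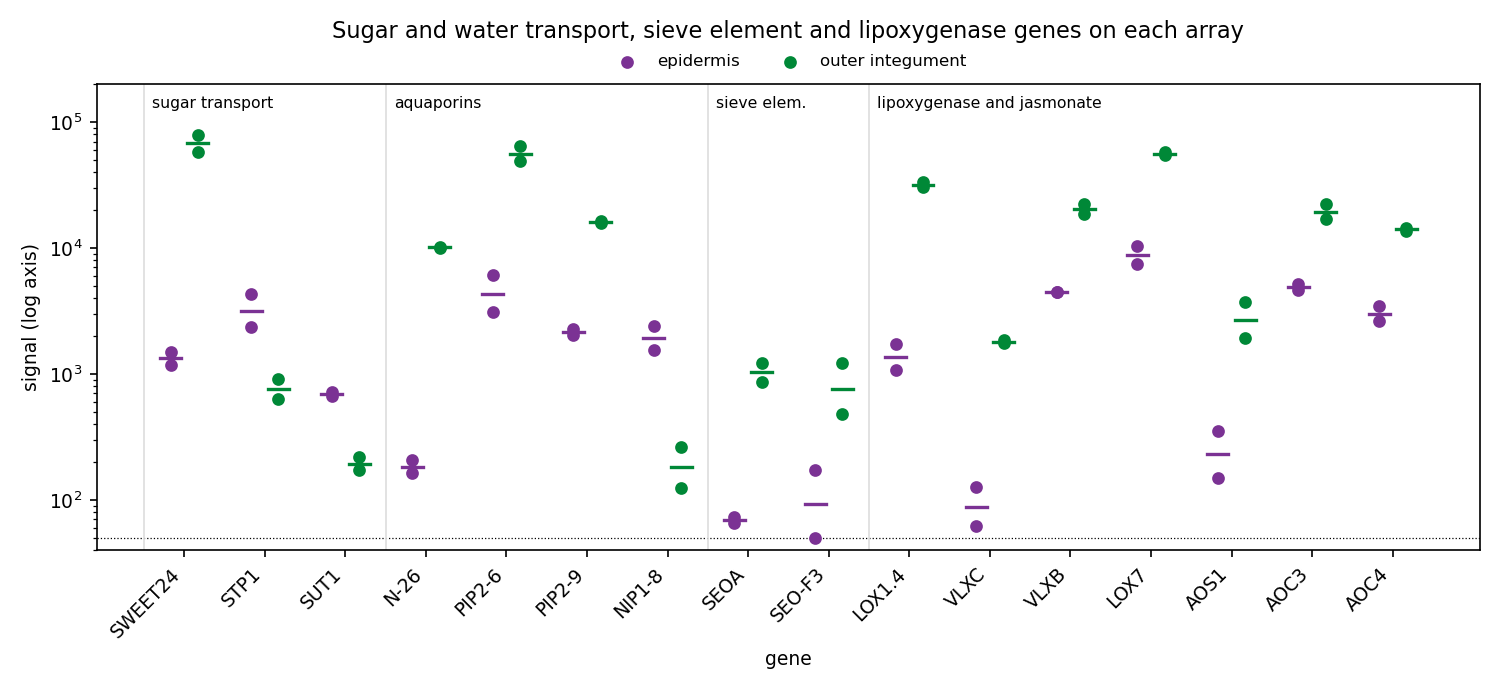
Signal of each array (dots, log axis, floored at 50 at the dotted line) and the geometric mean of each layer (bars) for 16 transport, sieve element and lipoxygenase genes, epidermis left and outer integument right of each position. STP1, SUT1 and NIP1-8 have higher signals in epidermis, and the other 13 genes have lower signals there.

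Hormone genes differed in both directions. GASA genes encode small cysteine-rich peptides that respond to gibberellin. Of 19 measured genes of gibberellin turnover and response, 6 rose in epidermis, 3 fell and 10 did not pass, and all 6 that rose were GASA genes. GASA6 had 34775.9 and 28415.0 in epidermis and 1165.0 and 882.3 in outer integument, 31.0-fold (log2 4.95 ± 0.40). GASA33 had 15465.9 and 22159.1 against 1113.4 and 899.3 (18.5-fold), and GASA9 had 9505.1 and 10329.6 against 1376.2 and 1206.7 (7.69-fold). The other 3, GASA32, GASA14 and GASA21, rose by 5.77-fold, 3.82-fold and at least 1.43-fold.

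Within the same family, GASA3 had 1803.2 and 2886.3 in epidermis, against 14534.1 and 17799.7 in outer integument (7.05-fold lower), and GASA29 had 168.5 and 507.2 against 2747.4 and 3728.8 (10.9-fold lower). GA2OX6, an oxidase that inactivates gibberellins, had 10.4 and 70.4 in epidermis and 547.7 and 627.6 in outer integument, at least 3.46-fold lower. Left-out arrays changed some of these. The GASA32 call was lost without outer integument array 2 (fold 3.41, adjusted p = 0.0961) and the fold was 9.77 without outer integument array 1. The fitted fold of GASA21 was 3.05, and its call was lost without epidermis array 2 (fold 2.11) or outer integument array 1 (fold 1.88), with 4.96 without outer integument array 2. The fold of GASA29 was 6.31 without epidermis array 1 and 19.0 without epidermis array 2.

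CKX3, a cytokinin oxidase that breaks cytokinins down, had 2932.7 and 5135.0 in epidermis, against 22285.4 and 24503.1 in outer integument (6.02-fold lower, adjusted p = 0.000162). It was the only cytokinin gene with a name. Of 7 measured auxin genes, 3 rose, 1 fell and 3 did not pass. The influx carrier LAX11 had 1654.9 and 1057.0 in epidermis and 299.2 and 245.6 in outer integument (4.88-fold), and AUX22, an early auxin-induced repressor, had 17.9 and 68.0 against 375.6 and 305.8 (at least 2.0-fold lower). The auxin receptors TIR1C and AFB3B were called 1.98-fold and 1.75-fold higher. The TIR1C call was lost without any 1 of the 4 arrays (adjusted p 0.0535 to 0.181). That of AFB3B was lost without epidermis array 1 (0.0876), epidermis array 2 (0.108) or outer integument array 1 (0.442).

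Of 15 measured ethylene genes, 2 rose, 2 fell and 11 did not pass. The receptor ETR2 had 226.2 and 190.0 in epidermis and 1255.1 and 1018.3 in outer integument (5.45-fold lower). ACS1, which makes the ethylene precursor, was called higher, but its epidermis arrays stood far apart, at 5376.5 and 148.9, against 31.3 and 2.0 in outer integument. Without epidermis array 1 its fold was 2.98 and the call was lost (adjusted p = 0.288). Without epidermis array 2 the fold was 108, and without outer integument array 1 or 2 the call was lost at 17.9-fold (0.0789 and 0.0713). The related ACS had 539.6 and 215.8 in epidermis and 102.9 and 26.4 in outer integument (at least 1.97-fold). The fitted ACS fold was 4.76, lost without epidermis array 1 (3.01, adjusted p = 0.0816) or outer integument array 2 (3.32, 0.0741) and 7.52 without epidermis array 2. DREB2A2, an AP2-type factor, had 181.9 and 125.1 in epidermis and 499.7 and 520.8 in outer integument. Its call was lost without epidermis array 2 (adjusted p = 0.166), outer integument array 1 (0.108) or outer integument array 2 (0.109).

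Cell wall protein genes split as well. Of 6 measured, 2 rose, 1 fell and 3 did not pass. PRP1, a repetitive proline-rich protein that is cross-linked into walls, had 19304.6 and 36934.3 in epidermis and 1422.7 and 1791.6 in outer integument (16.7-fold, adjusted p = 0.000841). PRP2 had 949.3 and 1170.0 in epidermis against 177.5 and 35.5 in outer integument, at least 6.07-fold. The fitted PRP2 fold of 11.2 was 21.1 without outer integument array 1 and 5.94 without outer integument array 2. SBPRP, another proline-rich protein, had 4070.8 and 3231.0 in epidermis and 38634.0 and 36131.0 in outer integument (10.3-fold lower). SCB1, a seed coat BURP-domain protein, was bright in both layers, with 52605.2 and 67204.7 in epidermis and 140587.8 and 90784.2 in outer integument (adjusted p = 0.654). PRP1 and PRP2 share repeats, and their probe sets carry the suffix for cross-binding.

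Among 9 measured genes of wall remodelling, 2 rose, 2 fell and 5 did not pass. The expansin EXP2, which loosens walls, had 1673.3 and 1264.1 in epidermis and 11949.9 and 12189.0 in outer integument (8.30-fold lower). XTH1, a xyloglucan-modifying enzyme, was 3.503-fold lower, with 12203.1 and 14399.3 in epidermis and 55338.5 and 38966.1 in outer integument. PGIP, a polygalacturonase inhibitor, rose at least 1.76-fold, and CEL12, an endoglucanase, rose 1.86-fold. The CEL12 call was lost without epidermis array 1 (adjusted p = 0.137), epidermis array 2 (0.0535) or outer integument array 1 (0.253). Among 6 peroxidase genes measured, PRX2 fell 2.12-fold and the other 5 did not pass. Ep, the gene of the seed coat peroxidase, had 126.7 and 139.1 in epidermis and 106.2 and 107.8 in outer integument.

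Transcription factor families held members of either direction, as did all genes with a name (9.88% higher and 14.0% lower). Of 58 measured MYB genes, 6 rose in epidermis, 3 fell and 49 did not pass, with a median log2 fold of 0.02. MYB11 had 3035.7 and 6239.4 in epidermis, against 106.1 and 39.3 in outer integument, at least 25.1-fold (log2 5.90 ± 0.50). Its other probe set did not pass (log2 fold 1.22, limma adjusted p = 0.167). MYB172 had 26473.7 and 32257.0 in epidermis and 740.1 and 735.5 in outer integument (39.6-fold), and a second of its 3 probe sets was called higher at a log2 fold of 6.26. The other 4 that rose were MYB56 (at least 2.86-fold), MYB60 (at least 2.76-fold), MYB73 (5.65-fold) and MYB120 (at least 1.503-fold). Calls of the last 2 were lost without outer integument array 1 (adjusted p 0.0541 for MYB73 and 0.0596 for MYB120). MYB120 was also lost without epidermis array 2 (0.249) or outer integument array 2 (0.219), and the MYB73 fold was 3.29 without outer integument array 1 and 9.73 without outer integument array 2.

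MYB138 had 345.6 and 48.1 in epidermis, against 8221.9 and 8063.6 in outer integument, 61.9-fold lower (log2 -5.95 ± 0.56). Its fold was 163 without epidermis array 1 and 23.6 without epidermis array 2, and its other probe set had signals of at most 73.0. MYB75 had 3.9 and 13.4 in epidermis and 518.4 and 574.0 in outer integument, at least 3.22-fold lower, and MYB50 fell 3.17-fold.

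WRKY factors, named for a conserved peptide motif of their DNA-binding domain, were mostly higher where they passed. Of 45 measured, 8 rose, 1 fell and 36 did not pass. WRKY29 had 1926.4 and 2330.4 in epidermis, against 90.2 and 99.4 in outer integument, at least 12.2-fold, and its other probe set was called higher too. WRKY11 had 1901.9 and 1906.2 against 157.3 and 112.6 (at least 11.0-fold), and WRKY10 had 1842.1 and 1166.2 against 202.2 and 194.0 (7.40-fold). WRKY41, WRKY37, WRKY33, WRKY14 and WRKY47 rose by 7.19-fold, 6.02-fold, 5.29-fold, 5.01-fold and 2.46-fold. WRKY22 fell 4.57-fold, with 6325.0 and 5847.8 in epidermis and 31554.4 and 24441.9 in outer integument. The WRKY47 call was lost without epidermis array 1 (adjusted p = 0.0644), epidermis array 2 (0.105) or outer integument array 1 (0.24), and that of WRKY33 without epidermis array 1 (0.0529).

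Of 58 measured bZIP factors, 3 rose, 11 fell and 44 did not pass, with a median log2 fold of -0.34, or 0.0 with genes near background at their bounds. With each array left out in turn, 1 of the 3 rises and 6 of the 11 falls held throughout. BZIP132 had 280.4 and 24.8 in epidermis, against 2354.2 and 3700.2 in outer integument, 24.9-fold lower, or 59.0-fold without epidermis array 1 and 10.53-fold without epidermis array 2. BZIP126 had 3392.6 and 5298.9 in epidermis and 19161.2 and 17588.8 in outer integument (4.33-fold lower), and BZIP68 fell 2.84-fold. BZIP48 had 588.4 and 1369.9 in epidermis against 5.5 and 3.4 in outer integument, at least 5.17-fold higher. Its fitted fold of 17.96 was 27.4 without epidermis array 1 and 11.8 without epidermis array 2.

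Of 18 measured NAC factors, 2 rose, 2 fell and 14 did not pass. NAC34 had 155.6 and 23.0 in epidermis and 1589.4 and 1724.3 in outer integument, 18.8-fold lower, or 33.1-fold without epidermis array 1 and 10.6-fold without epidermis array 2. NAC12 had 91.1 and 138.2 in epidermis against 1380.1 and 1629.2 in outer integument (at least 8.85-fold lower). NAC2 had 3085.3 and 2203.7 in epidermis and 634.2 and 485.5 in outer integument (4.70-fold higher). NAC69 had 174.2 and 217.2 against 23.2 and 20.3, at least 1.12-fold, and its call was lost without epidermis array 2 (adjusted p = 0.0553).

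Of 24 measured genes of other developmental factors, 3 rose, 2 fell and 19 did not pass. HSF-01, of the heat shock factor family, had 35322.7 and 55922.7 in epidermis and 2308.7 and 1356.5 in outer integument (25.1-fold, adjusted p = 4.25e-08), while its other probe set, with signals of at most 189.1, did not pass. GmCRY1c1, a cryptochrome, the blue light receptor family, had 216.4 and 561.6 in epidermis against 6528.9 and 6060.7 in outer integument, 18.04-fold lower, or 11.2-fold without epidermis array 1 and 29.1-fold without epidermis array 2. COL10, a CONSTANS-like gene, rose 6.53-fold, and the call of HSF-33 was lost without epidermis array 2 (adjusted p = 0.0537). The heat shock protein list itself had 0 higher, 1 lower and 5 neither, and the gene called, HSP22.5, had signals of at most 141.5. Its call was lost without outer integument array 1 (adjusted p = 0.0646). HSP90-1, counted as neither, had 1 of its 5 other probe sets called higher (limma adjusted p = 0.00825). That probe set, with a suffix, had 9017.9 and 6910.8 in epidermis and 4043.4 and 5310.2 in outer integument.

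**Figure D4:**
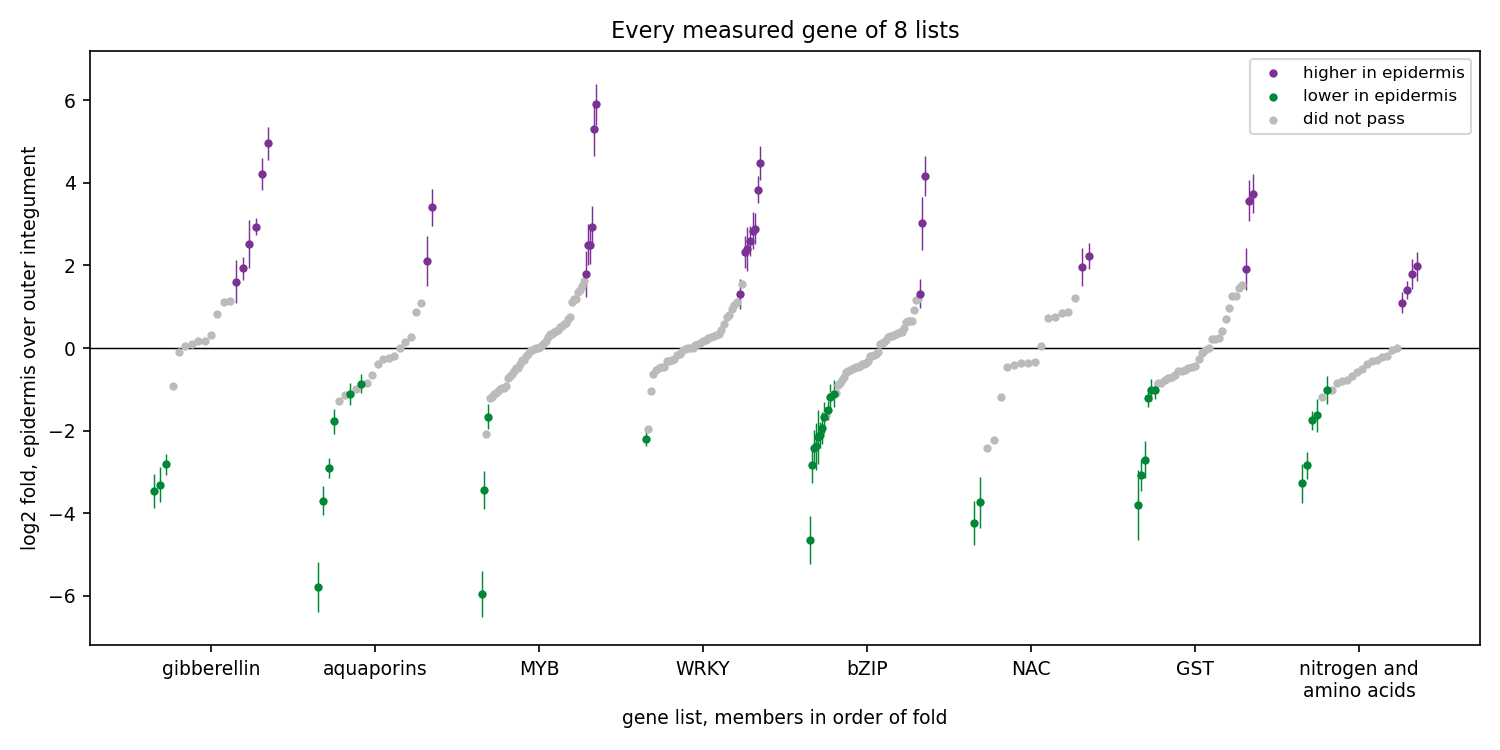
Log2 fold of epidermis over outer integument (vertical) for every measured gene of 8 lists, ordered by fold within each list. Called genes carry bars of ± 1 SE. In the MYB, bZIP, NAC, aquaporin, gibberellin and GST lists called genes lie on both sides of 0, and of the 9 called WRKY genes 8 lie above it.

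Genes of nitrogen use and amino acids (24 measured) had 4 higher, 5 lower and 15 neither, and 3 in each direction held with each array left out in turn. Isoforms of glutamine synthetase, which fixes ammonium, were opposed. The gene GS (LOC548082) had 28466.8 and 37122.0 in epidermis and 11163.3 and 13405.5 in outer integument (2.66-fold higher), and GS (LOC547953) was 3.47-fold higher. None of the 3 other probe sets of GS (LOC548082) passed, and 2 of them had the opposite sign. GS1-GAMMA had 368.0 and 333.8 in epidermis, against 2804.3 and 4119.8 in outer integument (9.70-fold lower, adjusted p = 6.36e-05). NRT1-3, of the nitrate and peptide transporter family, had 12797.1 and 10474.8 in epidermis and 43996.7 and 34671.3 in outer integument (3.37-fold lower). MIPS, which makes inositol phosphate, fell 7.16-fold.

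Glutathione S-transferases, which join glutathione to reactive compounds, had 3 higher, 6 lower and 26 neither of 35 measured, and 2 of the rises and 4 of the falls held with each array left out. GmGSTU2 had 2381.2 and 1792.3 in epidermis and 198.8 and 152.1 in outer integument (11.9-fold higher), and GSTIR had 677.7 and 653.9 against 4.1 and 12.5 (at least 3.84-fold higher). GSTU51 had 386.6 and 425.8 in epidermis against 4260.8 and 2753.0 in outer integument (8.44-fold lower), and GSTU37 was 6.5-fold lower. Of 23 measured cytochrome P450 genes outside the pathways above, 0 rose and 5 fell, of which 3 held with each array left out. CYP72A67 had 1201.9 and 1143.4 in epidermis and 13496.3 and 12076.8 in outer integument (10.9-fold lower). The call of CYP90A15 was lost without epidermis array 2 (adjusted p = 0.0802) or outer integument array 2 (0.0658). The fold of CYP84A16 was 5.73, or 2.23 without epidermis array 1 and 14.7 without epidermis array 2.

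Genes of the histone and cell cycle list were higher in epidermis where they passed. PCNA, the clamp of DNA replication, had 21681.8 and 28742.1 in epidermis and 5235.7 and 6635.6 in outer integument (4.24-fold, adjusted p = 2.83e-07), and the tubulin TUBB2 was 2.21-fold higher. These were 2 of 5 measured genes of that list, with 0 lower. H4, a histone, had 514.3 and 363.2 in epidermis against 9.1 and 306.4 in outer integument (adjusted p = 0.171), and TUBB3 had 12491.6 and 11093.0 against 17485.0 and 17923.2 (adjusted p = 0.0612).

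Receptor kinases (8 measured) had 1 higher, 2 lower and 5 neither. SARK, a senescence-associated receptor-like kinase, had 1496.5 and 1126.4 in epidermis and 7.8 and 26.1 in outer integument (at least 7.48-fold), and 1 of its 2 other probe sets was called higher. LRK1 had 251.2 and 426.5 in epidermis against 2508.5 and 3753.5 in outer integument (9.38-fold lower). The other fall, RLK2, was lost without epidermis array 1 (adjusted p = 0.161), outer integument array 1 (0.128) or outer integument array 2 (0.0811). Of the 15 largest rises, the one with the highest fitted fold was SSH2, a Sec14-like lipid transfer protein, at 8095.7 and 7902.0 in epidermis and 83.6 and 100.8 in outer integument (at least 46.1-fold, adjusted p = 9.04e-08).

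Among the 15 largest falls, SSTP-1 had 270.8 and 562.3 in epidermis, against 45280.3 and 16898.5 in outer integument (70.9-fold lower, adjusted p = 0.000121). Its fold was 43.3 without outer integument array 1 and 116 without outer integument array 2, and its other probe set did not pass. Rsv4, a gene for resistance to soybean mosaic virus, had 117.5 and 149.0 in epidermis and 7791.7 and 9177.1 in outer integument (at least 49.9-fold lower). DRR1 had 141.0 and 128.5 in epidermis against 2536.6 and 2867.3 in outer integument (20.04-fold lower). GmSHMT08m, a serine hydroxymethyltransferase of one-carbon metabolism, had 197.9 and 42.8 in epidermis and 1409.4 and 1970.6 in outer integument, 16.8-fold lower, or 33.3-fold without epidermis array 1 and 8.42-fold without epidermis array 2.

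Some gene groups had few or no calls. Of 10 measured photosynthesis genes, 0 passed in the limma fit, 0 had an unadjusted p under 0.05, and their log2 folds ran from -0.53 to 0.45. CAB3, a chlorophyll-binding protein, had 16276.1 and 18201.4 in epidermis and 20177.8 and 20247.0 in outer integument. Of 10 phosphate starvation genes, 0 passed and 1 had an unadjusted p under 0.05 (limma), with log2 folds from -0.39 to 0.78. Of 4 pathogenesis-related genes, 0 passed and 1 had an unadjusted p under 0.05 (limma). Another probe set of OLPa, an osmotin-like protein, was called lower, at 4.7 and 21.0 in epidermis and 166.1 and 98.9 in outer integument (adjusted p = 0.0337), signals near background. Plastid fatty acid synthesis had 0 higher, 1 lower (KASII-A, lost without epidermis array 2 or outer integument array 1, adjusted p 0.101 and 0.185) and 9 neither, and oil genes had 0 higher, 2 lower and 8 neither. The other oil gene called besides the desaturase FAD3C was DGAT3-2, whose call was lost without epidermis array 1 (fold 2.37 with it and 1.95 without, adjusted p = 0.0621). FAD3C had 556.6 and 22.4 in epidermis against 1307.1 and 1242.9 in outer integument (7.64-fold lower). Its call was lost without epidermis array 2 (fold 2.29, adjusted p = 0.14) or outer integument array 1 (0.0547), and the fold was 25.5 without epidermis array 1. In these 2 lists, other probe sets of genes counted as neither were called. That of ACCC-2, without a suffix, was higher, at 1862.8 and 1507.6 in epidermis and 897.4 and 936.3 in outer integument (limma adjusted p = 0.033). That of FAD8.2, with a suffix, was lower (log2 fold -1.45, limma adjusted p = 0.000558). Maturation genes (32 measured, the list fixed for suspensor) had 2 higher, 2 lower and 28 neither. Both rises were lost with 1 array left out, PM12 without epidermis array 1 (fitted fold 2.92 in place of 4.97, adjusted p = 0.0765) and PM34 without epidermis array 2 (fitted fold 1.90 in place of 3.06, 0.382) or outer integument array 1 (0.345). Without the other epidermis array the folds were 8.46 for PM12 and 4.94 for PM34. Of the falls, PM23 was lost without epidermis array 1 (0.0568) or outer integument array 1 (0.0817), and LEA-2 was not. Of 4 ribosomal protein genes 1 was higher, RPS13 by 1.45-fold, a call lost without any 1 of the 4 arrays (adjusted p 0.0571 to 0.167).

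The remaining lists were small or little changed. The GF14 adaptor proteins, known as 14-3-3 (7 measured), had 2 higher, 0 lower and 5 neither, calcium signalling (8) had 1 higher, 0 lower and 7 neither, and homeodomain factors (3) had 1 higher and 0 lower. Both GF14 calls, GF14A and SGF14G, were lost without epidermis array 1 (adjusted p 0.0894 and 0.289) and without outer integument array 1 (0.112 and 0.263). The calcium call, SCAM-1, was lost without epidermis array 1 (0.0623), epidermis array 2 (0.0642) or outer integument array 1 (0.153). MADS-box factors (6), nodulin-named genes (5) and lectins with protease inhibitors (6) each had 0 higher and 1 lower. The MADS-box call, AGL1L, was lost without any 1 of the 4 arrays (adjusted p 0.0694 to 0.151). The nodulin call, NOD33, was lost without epidermis array 2 (fold 2.18 in place of 4.05, adjusted p = 0.187) or outer integument array 1 (0.0731), and its fold was 7.52 without epidermis array 1. The lectin and inhibitor call was KTI-3, a Kunitz trypsin inhibitor, with 530.4 and 658.8 in epidermis and 3842.5 and 4484.4 in outer integument (7.02-fold lower).

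**Figure D5:**
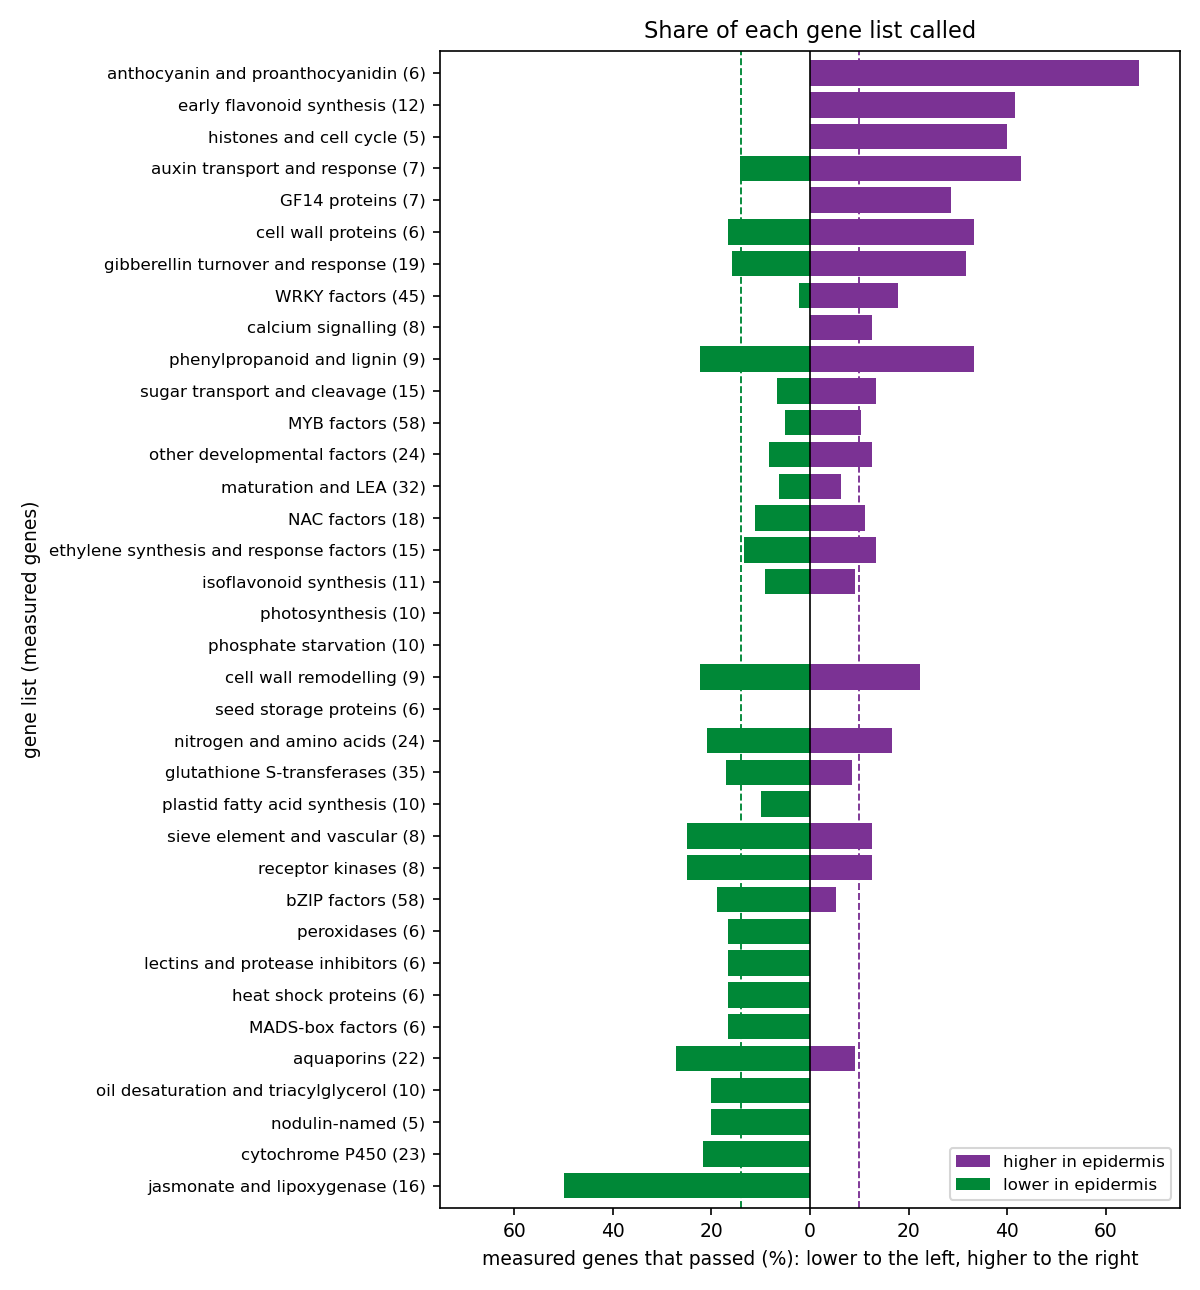
Share of the measured genes of each list that were higher (right) or lower (left) in epidermis, for lists of at least 5 measured genes, with the number measured in brackets. Dashed lines mark the shares over all genes with a name, 9.88% higher and 14.0% lower. Anthocyanin and proanthocyanidin genes reach farthest right (4 of 6) and jasmonate and lipoxygenase genes farthest left (8 of 16).

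Some wide separations lay in probe sets with no gene in the annotation used. The probe set GmaAffx.67296.1.S1_at had 18678.1 and 21173.1 in epidermis and 28.2 and 188.1 in outer integument (205-fold higher). With outer integument array 1 raised to its background percentile, the fold of this probe set was 103. Its fold was 106 without outer integument array 1 and 398 without outer integument array 2. GmaAffx.74402.1.A1_at had 18401.8 and 17564.2 in epidermis against 167.6 and 62.7 in outer integument (at least 104-fold higher). In the other direction, Gma.10904.1.S1_at had 90.3 and 203.7 in epidermis and 54612.4 and 37466.6 in outer integument (at least 267-fold lower). Gma.10904.1.S1_s_at, of the same design cluster by its name, had 61.7 and 115.9 in epidermis against 15062.4 and 14504.4 in outer integument (at least 87.2-fold lower).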

How the data were processed

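RNA of laser-captured seed layers was hybridized to 18 arrays, which form 9 groups of 2. For every probe set the authors deposited an intensity on a linear scale, made with GCOS 1.3 per the submitters' processing notes. Other settings are not given in the sources used here. The number of arrays limits the precision.

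Soybean probe sets (37593 of 61170) entered the test where 2 or more arrays reached a signal of 100. Signals under 50 were set to 50 and taken to log2. Functions lmFit and eBayes with a trend (limma 3.58.1, R 4.3.3) fitted 9 group means, and p-values of epidermis minus outer integument were adjusted by Benjamini-Hochberg over all tested probe sets, with a threshold of 0.05. Folds divide the geometric means of floored signals. Where both arrays of the lower layer lay under their 95th percentile of other-organism probe sets, it is a bound against that percentile. Where only 1 array lay under it, the fold is printed without a bound. Raising that array to its percentile gave folds of 29.98 for MYB138, 12.06 for BZIP132 and 9.08 for NAC34. It gave 8.11 for GmSHMT08m, 3.98 for SEO-F3 and 3.70 for FAD3C, among others. The fit was tested on simulated data.

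By the probe table, 8677 soybean probe sets had 1 symbol, 370 had more than 1 and 28546 were unlisted. A gene is read from its tested probe set of highest mean log2 signal. Probe set suffixes a, s and x mark possible binding of related transcripts.

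Genes named are the 15 largest rises and 15 largest falls without overlap of arrays, up to 4 genes of smallest p in each list of at least 3 measured genes, and the 2 largest changes each way among probe sets without a gene. Further members of a list were named after their values were seen. Members, lists and alternatives were chosen with earlier results of these data known. Matches of spelling were removed from lists and some members, with the lists of pathogenesis-related, cytochrome P450 and phosphate starvation genes, were added once the annotation was seen. Lists were described, not tested. Same-numbered arrays deviated with a correlation of -0.06, or -0.14 over probe sets with a mean signal over 500. The main fit did not treat them as pairs. Whether same-numbered captures shared seeds or a batch was not tested. Alternatives were the floor, the filter, the scaling, the variance model, the arrays in the fit, a replicate block and each array left out. Promoter motifs and sequences were not used here.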

Additional observations from a re-analysis of the deposited data

How the results depend on the processing

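The count of 4488 probe sets called (2185 higher and 2303 lower in epidermis) stayed within 1.5 times under other floors, other filters, quantile normalization, median centring, no variance trend and the captured arrays alone, between 3804 and 4731 in all. A fit of the 4 arrays alone called 609, 303 higher and 306 lower, and 75 of 107 called named genes were lost there. This fit has fewer samples. Without both higher-background arrays (epidermis array 2 and outer integument array 1) 2610 were called, 1348 higher and 1262 lower, and 27 named genes were lost, with the lone array of each layer assumed to vary like the other groups. Leaving out each array in turn gave 3160 to 3593 calls, 1598 to 1793 higher and 1562 to 1800 lower. With the replicate number as a block 4463 were called, 2165 higher and 2298 lower, and 0 of 161 named genes changed call. No named gene called in the main fit or in an alternative changed sign between them. Sign changes of genes called in neither were not counted. In each alternative 161 named genes were tested, except 147 with the filter at 300 and 154 with the filter on the 4 arrays. For other-organism probe sets a floor of 200 left most without spread, so that fit was not usable. Signals near background limit the size of the largest folds, and of 186 other probe sets of called genes 64 were called the same way, 120 were not called and 2 were called the opposite way.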

Other observations

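Among the 15 largest falls were also AMS1 and GT4, which were in no list, like SSTP-1, Rsv4, DRR1 and GmSHMT08m described above. AMS1, a beta-amyrin synthase, had 55.6 and 22.6 in epidermis and 1099.2 and 562.7 in outer integument (at least 4.64-fold). GT4, the Sg-1 glycosyltransferase that sets the sugar end of saponins, had 38.4 and 61.8 in epidermis against 1024.7 and 1175.0 in outer integument (at least 6.48-fold).

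The genes that follow were chosen after their values were seen. They stand for no pathway, since other members were not counted. SGT2, a saponin glycosyltransferase, had 986.3 and 752.9 in epidermis and 6684.7 and 5307.2 in outer integument (6.91-fold), and SGT3 had 1567.7 and 1474.5 against 9299.0 and 8710.3 (5.92-fold).

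PEPC7, a phosphoenolpyruvate carboxylase, had 1242.7 and 1251.8 in epidermis and 11305.5 and 12071.4 in outer integument (9.37-fold lower, limma adjusted p = 2.84e-09). GBSSIa, a granule-bound starch synthase, had 2033.9 and 2717.5 in epidermis against 10736.8 and 11140.4 in outer integument (4.65-fold lower). BMY2, a beta-amylase, had 180.4 and 132.8 in epidermis and 665.5 and 1063.4 in outer integument (5.43-fold lower). ASP1, an asparaginase, had 4484.9 and 1774.1 in epidermis against 31271.5 and 40104.0 in outer integument (12.55-fold lower, or 19.96-fold without epidermis array 1 and 7.90-fold without epidermis array 2). In the other direction, CCS52, an activator of the cell cycle ligase that is linked to endoreduplication, had 4807.8 and 5677.2 in epidermis and 523.1 and 547.2 in outer integument (9.77-fold higher).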
